A study of Mus musculus with 2 samples.

Results

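FGF4 signalling through ERK is one of the routes by which mouse embryonic stem cells (mESCs) leave self-renewal. Here 10 genes of this route were followed: the ligand Fgf4, the receptor Fgfr1, the feedback inhibitors Spry2, Spry4 and Spred1, the MAP kinase phosphatases Dusp4, Dusp6 and Dusp9, and the ETS transcription factors Etv4 and Etv5. They were taken by symbol from the deposited table of 18888 genes, and all 10 were in it. The comparison was between PB mESCs, which carry the empty PiggyBac vector, and PB-TERRA mESCs, which express polyadenylated telomeric noncoding RNA (TERRA) from the same vector. Both were 46C mESCs, a line with a GFP reporter in the neural gene Sox1, at passages 21 to 24, kept on gelatin in conventional mESC medium. The labels name no MEK inhibitor for these cultures and do not say whether each line was a clone or a pool. Total RNA of each line gave 1 library, so there is no replicate spread, no test of the conditions was possible, and every difference below is between 2 libraries.

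In this pathway FGF4, which mESCs secrete, binds FGF receptors and activates RAS, RAF, MEK and ERK in turn. ERK then induces genes that restrain it. Sprouty and Spred proteins act upstream on RAS and RAF, DUSP phosphatases remove the phosphates from ERK and other MAP kinases, and the ETS factors ETV4 and ETV5 carry the output to other genes. Some of these genes respond to ERK activity. The RNA of the Sprouty genes, Dusp6, Etv4 and Etv5 is commonly used as a readout of it. The same is not assumed here for Dusp9, Fgf4 and Fgfr1. The MEK inhibitor in serum-free 2i medium blocks this route.

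The expression values were read as FPKM (fragments per kilobase of gene, scaled to the mapped fragments of the library). Each difference is expressed as the log2 ratio of PB-TERRA to PB after 0.1 FPKM was added to both values, which understates differences of low genes. Genes were kept if either library had 1 FPKM or more, which left 12263, all 10 members among them. Read numbers were estimated from the steps of low FPKM values, which gave a sum of 2.48e+07 reads in PB and 2.49e+07 reads in PB-TERRA. The members had between 1411 and 12600 reads per library. Each ratio is given with an exact 95% interval of its reads (Clopper-Pearson), which covers counting error only and not the spread between cultures.

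Of the 10 genes, 7 had a counting interval above 0, that is, a higher level in the PB-TERRA library. These were Dusp9, Etv4, Spry4, Dusp6, Fgf4, Spred1 and Spry2. Fgfr1 alone had an interval below 0, and the intervals of Dusp4 and Etv5 included 0. Among all genes past the filter, 18.2% had an interval above 0 and 17.6% below. Among genes of similar level, with a mean of 20 to 150 FPKM, a range chosen after the members' levels were seen, the shares were 24.3% and 23%. The differences were small. A 2-fold difference, that is a log2 ratio of 1 or more in size, was reached by 0 of the 10 genes and by 0.913% of all genes past the filter. The median log2 ratio of the 10 genes was 0.19, and that of all genes past the filter was -0.0044. With both libraries scaled to the same summed FPKM, 8 of the 10 genes had an interval above 0, Etv5 being added, and the shares of all genes moved to 25.04% above and 12.3% below. The study itself displayed Fgf4, Dusp6 and Dusp9 among its marker genes from these libraries, so their direction is not independent evidence.

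**Figure D1:**
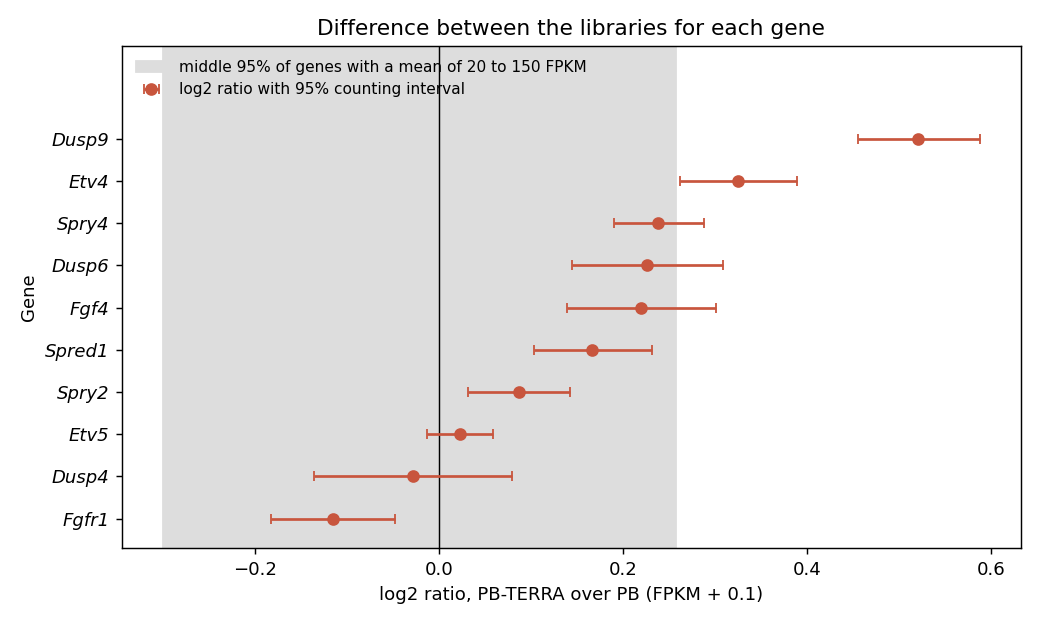
Log2 ratio (PB-TERRA over PB) of each of the 10 genes on the horizontal axis, with its 95% counting interval as a bar, against the middle 95% of genes with a mean of 20 to 150 FPKM in grey (from -0.30 to 0.26). Dusp9 at 0.52 and Etv4 at 0.32 lay outside the grey band, and the other 8 genes lay inside it.

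Fgf4 is the main FGF ligand that undifferentiated mESCs make. It had 31.9 FPKM in PB and 37.1 FPKM in PB-TERRA, from 2302 and 2696 reads. The level was thus higher in the PB-TERRA library, with a log2 ratio of 0.22 (95% interval 0.14 to 0.30). Of the summed FPKM of the 20 FGF ligand genes in the table, Fgf4 made up 38.3% in PB and 44.0% in PB-TERRA. Fgf17 was the other abundant ligand, with 31.8 FPKM in PB and 28.3 FPKM in PB-TERRA, and lay on the opposite side (log2 ratio -0.17, interval -0.29 to -0.05). The ligand total was nearly equal, 83.4 FPKM in PB and 84.3 FPKM in PB-TERRA.

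Fgfr1 encodes the predominant FGF receptor of mESCs. Its level was 30.8 FPKM in PB and 28.5 FPKM in PB-TERRA, from 3758 and 3489 reads. It was the only member lower beyond its counting interval (log2 ratio -0.12, interval -0.18 to -0.05). Fgfr1 held 80.7% of the summed FPKM of the 4 FGF receptor genes in PB and 79.7% in PB-TERRA, with Fgfr2 next at 4.72 and 4.52 FPKM. Ligand and receptor differed in their log2 ratios by 0.33 (interval 0.23 to 0.44, from the 4 read numbers), a difference that does not depend on how the libraries are scaled.

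Spry2 and Spry4 encode Sprouty proteins, which ERK signalling induces and which dampen receptor tyrosine kinase signalling. Spry2 had 102 FPKM in PB and 109 FPKM in PB-TERRA, from 5044 and 5387 reads, with a log2 ratio of 0.09 (interval 0.03 to 0.14). Spry4 had 55.9 FPKM in PB and 65.9 FPKM in PB-TERRA, from 6222 and 7383 reads, with a log2 ratio of 0.24 (interval 0.19 to 0.29). Both were higher in the PB-TERRA library, and Spry4 more so than Spry2, by 0.15 (interval 0.08 to 0.23). Spred1 encodes a Sprouty-related protein that keeps RAS from activating RAF, with the help of neurofibromin. It had 24.2 FPKM in PB and 27.1 FPKM in PB-TERRA, from 3669 and 4143 reads, with a log2 ratio of 0.17 (interval 0.10 to 0.23). Its ratio lay between those of the Sprouty genes, and the interval of the difference included 0 against Spry4 (-0.01 to 0.15) and against Spry2 (-0.17 to 0.0041).

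Among the 7 Sprouty and Spred genes of the table, Spry2 was the most abundant, with 44.8% of their summed FPKM in PB and 43.2% in PB-TERRA. Spry4 held 24.5% in PB and 26.2% in PB-TERRA. Spred2, which acts like Spred1 and is no member, had 28.2 and 32.3 FPKM (log2 ratio 0.20, interval 0.11 to 0.28). Spry1 had 11.5 and 11.9 FPKM with an interval that included 0, as did that of Spred3, with 6.20 and 5.55 FPKM.

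Dusp9, Dusp6 and Dusp4 encode phosphatases that inactivate MAP kinases. DUSP6 and DUSP9 belong to the cytoplasmic class, which prefers ERK, and DUSP4 is a nuclear enzyme. Dusp9 had 48.8 FPKM in PB and 70.1 FPKM in PB-TERRA, from 3143 and 4536 reads. This 1.44-fold difference was the largest among the members (log2 ratio 0.52, interval 0.46 to 0.59). Dusp9 lay at the 97.8th percentile of all genes past the filter and at the 99.5th percentile of the 3612 genes with a mean of 20 to 150 FPKM. Dusp6 had 33.6 FPKM in PB and 39.4 FPKM in PB-TERRA, from 2249 and 2646 reads (log2 ratio 0.23, interval 0.14 to 0.31). Dusp4 had 24.98 FPKM in PB and 24.5 FPKM in PB-TERRA, from 1431 and 1411 reads, and a difference was not detectable at this depth (log2 ratio -0.03, interval -0.14 to 0.08).

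The 3 phosphatase genes therefore differed from each other. Dusp9 exceeded Dusp6 in its log2 ratio by 0.29 (interval 0.19 to 0.40) and Dusp4 by 0.55 (interval 0.42 to 0.67), and Dusp6 exceeded Dusp4 by 0.25 (interval 0.12 to 0.39). Of the summed FPKM of the 3 genes, Dusp9 took 45.4% in PB and 52.3% in PB-TERRA. The share of Dusp4 was 23.3% in PB and 18.3% in PB-TERRA. Over the 10 MAP kinase phosphatase genes of the table, the summed level was 166 FPKM in PB and 194 FPKM in PB-TERRA, and Dusp9 alone accounted for most of that gap. Dusp1, a nuclear phosphatase induced early after stimulation, had 28.1 and 31.9 FPKM (log2 ratio 0.18, interval 0.08 to 0.29). Dusp16, which acts on the stress-activated kinases, was lower, with 9.53 and 8.02 FPKM (log2 ratio -0.25, interval -0.37 to -0.13).

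Etv4 and Etv5 encode ETS factors of the PEA3 group, which FGF signalling induces in many tissues. Etv4 had 65.1 FPKM in PB and 81.5 FPKM in PB-TERRA, from 3606 and 4543 reads, with a log2 ratio of 0.32 (interval 0.26 to 0.39). Etv5 was the most abundant member in both libraries, with 133 FPKM in PB and 136 FPKM in PB-TERRA, from 12336 and 12600 reads. Its log2 ratio was 0.02 (interval -0.01 to 0.06), and the log2 ratios of these closely related factors differed by 0.30 (interval 0.23 to 0.38). Etv1, the third gene of the group, had 10.8 and 13.3 FPKM (log2 ratio 0.29, interval 0.18 to 0.42). Etv5 made up 63.7% of the summed FPKM of the group in PB and 58.8% in PB-TERRA.

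**Figure D2:**
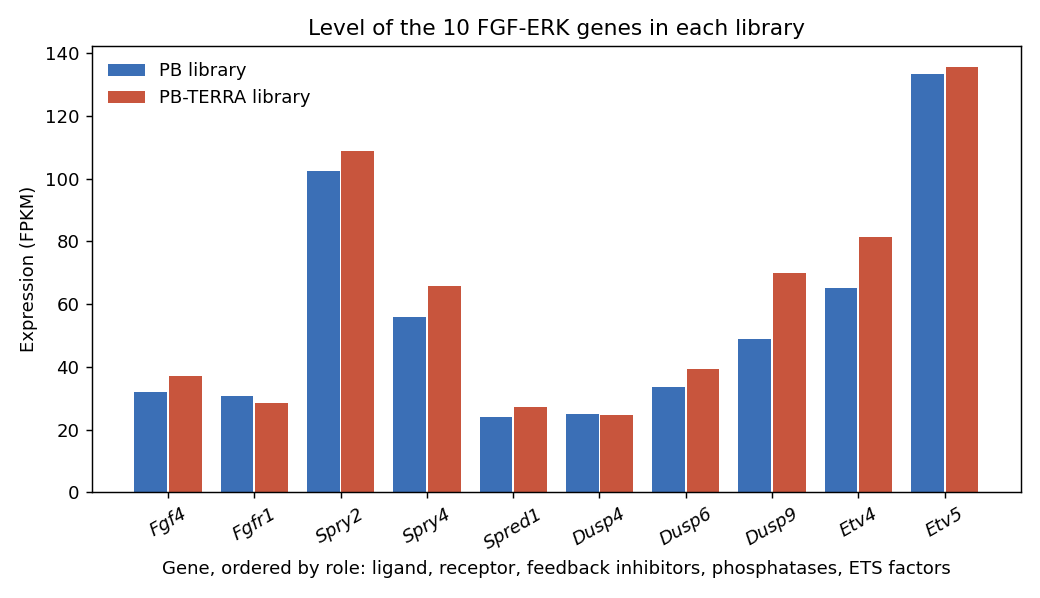
Level in FPKM (vertical axis, from 0) of each of the 10 genes in the PB library (blue) and the PB-TERRA library (red), ordered by role, with 1 library per bar. Etv5 and Spry2 were the highest in both libraries, and the widest gaps are those of Dusp9 (48.8 and 70.1 FPKM) and Etv4 (65.1 and 81.5 FPKM).

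FPKM is scaled to gene length, so the levels can be ordered. The intervals of this order cover counting error only. Differences between genes in annotated length or read coverage were not tested. From highest to lowest the order in PB was Etv5, Spry2, Etv4, Spry4, Dusp9, Dusp6, Fgf4, Fgfr1, Dusp4 and Spred1. By counting error, the neighbours Dusp6 and Fgf4, Fgf4 and Fgfr1, and Dusp4 and Spred1 could not be told apart in PB. In PB-TERRA the order was Etv5, Spry2, Etv4, Dusp9, Spry4, Dusp6, Fgf4, Fgfr1, Spred1 and Dusp4, and each neighbour differed from the next by more than its counting interval. Dusp9 and Spry4 changed places, with Spry4 the higher in PB by 1.14-fold (interval 1.097 to 1.195) and Dusp9 the higher in PB-TERRA by 1.06-fold (interval 1.024 to 1.103). The spread of levels within each library, from 24.2 to 133 FPKM in PB, was thus far wider than the difference of any member between the libraries.

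**Figure D3:**
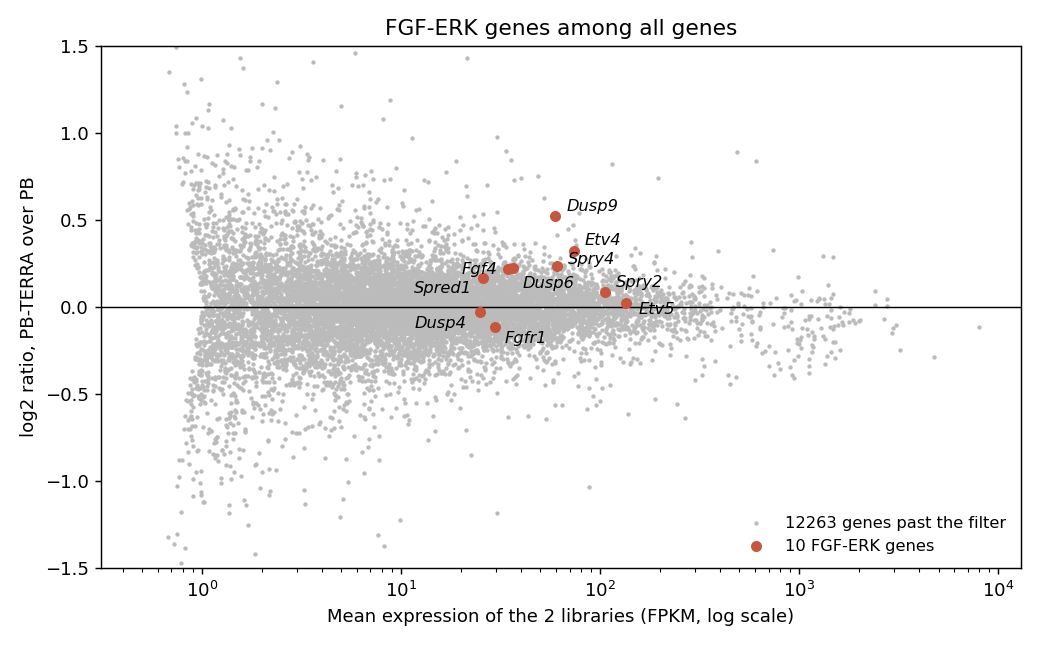
Log2 ratio (vertical axis) against the mean FPKM of the 2 libraries (horizontal axis, log scale) for the 12263 genes past the filter in grey and the 10 members in red. A further 50 grey genes lie beyond the vertical range, Dusp9 stands at the upper edge of the cloud at its level, and Dusp4 and Etv5 lie within its middle. Fgfr1 lies lower, at the 17.9th percentile of genes with a mean of 20 to 150 FPKM.

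The promoters of the members were compared for sites of the repressor Capicua (CIC), which ERK signalling relieves and which is known to silence PEA3 and DUSP genes, and for ETS sites. The promoter table of RefSeq (build GRCm38.p6, from 250 bases before to 50 bases after the gene start) held 5 of the 10 genes, Fgf4, Dusp6, Spry2, Spred1 and Etv5, the last with 2 starts. This build differs from the mm9 build that the submitters name, and only the sequences were taken from it. The CIC octamers searched on both strands were TGAATGAA, TGAATGGA, TCAATGAA and TCAATGGA, and the ETS sites were CCGGAAGT and its core CCGGAA, which the former contains. CIC octamers occurred in 3.84% of the 32851 promoters of this length, CCGGAAGT in 3.89% and CCGGAA in 14.9%. Among the members, CIC octamers were found 3 times, in Dusp6 and Spry2. Counted on the gene's strand, with 1 at the gene start and -1 just before it, Dusp6 has TCAATGGA on the opposite strand from position -24 and again from position 2. Spry2 has TCAATGAA on the opposite strand from position -54. CCGGAAGT was found in 0 of the 5 genes, and CCGGAA in Spry2. Dusp6 and Spry2 are printed because they hold the matches, and Fgf4 as the ligand without one. Each is 5′ to 3′ on the strand of the gene, with the matches in capitals (TCCATTGA and TTCATTGA are the CIC octamers read from the other strand).
Dusp6, chr10:99262981-99263280, + strand: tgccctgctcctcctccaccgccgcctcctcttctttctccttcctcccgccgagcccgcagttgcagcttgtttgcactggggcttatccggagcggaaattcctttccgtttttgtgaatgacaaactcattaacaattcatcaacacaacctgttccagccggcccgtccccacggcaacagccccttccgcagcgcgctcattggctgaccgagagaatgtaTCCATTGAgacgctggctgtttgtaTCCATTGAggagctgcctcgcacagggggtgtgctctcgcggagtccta
Spry2, chr14:105896770-105897069, - strand: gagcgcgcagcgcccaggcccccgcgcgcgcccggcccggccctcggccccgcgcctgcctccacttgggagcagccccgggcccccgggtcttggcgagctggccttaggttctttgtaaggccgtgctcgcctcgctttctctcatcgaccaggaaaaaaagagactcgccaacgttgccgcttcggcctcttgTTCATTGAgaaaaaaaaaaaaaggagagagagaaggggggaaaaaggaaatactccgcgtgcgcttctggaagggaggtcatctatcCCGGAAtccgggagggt
Fgf4, chr7:144861136-144861435, + strand: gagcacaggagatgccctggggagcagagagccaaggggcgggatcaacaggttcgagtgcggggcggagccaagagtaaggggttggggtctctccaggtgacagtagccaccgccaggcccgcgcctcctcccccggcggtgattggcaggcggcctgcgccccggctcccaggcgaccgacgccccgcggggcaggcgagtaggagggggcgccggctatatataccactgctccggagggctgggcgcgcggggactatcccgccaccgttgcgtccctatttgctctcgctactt
The level of Dusp6 and Spry2, with a match, and of Fgf4 and Spred1, without one, was higher in PB-TERRA, and Etv5, also without one, had an interval that included 0. Only exact octamers were counted, so a promoter without a match can still hold a similar site. Cic itself had 30.8 and 33.9 FPKM (log2 ratio 0.14, interval 0.09 to 0.19).

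The other genes of the pathway were listed by role, 115 in all, of which 93 passed the filter. The interval lay above 0 for 27 of them (29.0%), below 0 for 14 (15.1%), and included 0 for 52, beside 18.2% above and 17.6% below among all genes past the filter. Their median log2 ratio was 0.02, and 0 differed by 2-fold. The lists were not tested against each other.

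Of the other ligands, 7 passed the filter, 0 with an interval above 0 and 2 below, with a median of -0.17. This median rests on few genes and was 0.030 with no filter and -0.042 with the filter at a mean of 5 FPKM. Besides Fgf17, the lower gene was Fgf5, a marker of cells leaving the naive state, with 2.46 and 1.57 FPKM. Fgf15 had 5.24 and 5.56 FPKM and an interval that included 0. Fgf4 was thus the only 1 of the 8 ligand genes past the filter with a level above its counting interval in PB-TERRA.

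Of the receptors, proteoglycan co-receptors and heparan sulfate enzymes, 16 passed the filter, 3 with an interval above 0 and 3 below, or 18.8% each, close to the shares of all genes (median -0.01). The syndecan gene Sdc4 (13.9 and 16.8 FPKM, log2 ratio 0.27) and the glypican gene Gpc4 (12.8 and 14.4 FPKM, log2 ratio 0.18) were the highest. The glypican genes Gpc3 (15.1 and 11.3 FPKM, log2 ratio -0.41) and Gpc1 (16.7 and 14.1 FPKM, log2 ratio -0.24) were the lowest. Fgfr2, Fgfr3 and Fgfr4 had intervals that included 0.

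Of the relay from receptor to ERK, 27 genes passed the filter, 7 with an interval above 0 (25.9%) and 5 below (18.5%), not far from the shares of all genes, with a median of -0.02. With the trend over gene length taken off, the counts turned to 3 above and 7 below. The RAS-like GTPase genes Mras (12.4 and 17.0 FPKM, log2 ratio 0.45) and Rras (17.3 and 12.1 FPKM, log2 ratio -0.52) were the extremes, followed, among genes at 5 FPKM or more in a library, by the adaptor gene Frs2 (log2 ratio 0.13) and the MEK1 gene Map2k1 (log2 ratio -0.18). Of the kinase genes, named for their role after their values were seen, Map2k2, which encodes MEK2, had 39.8 and 37.2 FPKM and Mapk3, which encodes ERK1, 58.8 and 53.0 FPKM, both with an interval below 0.

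Of the other inhibitors, 24 passed the filter, 9 with an interval above 0 (37.5%) and 3 below (12.5%), with a median of 0.06. Among all genes past the filter the shares were 18.2% and 17.6%. The highest were Pebp1 (6.03 and 9.32 FPKM, log2 ratio 0.62), which encodes a RAF inhibitor, and Erf (76.4 and 92.4 FPKM, log2 ratio 0.27), an ETS repressor that ERK exports from the nucleus. Il17rd, the Sef gene (14.1 and 11.7 FPKM, log2 ratio -0.27), was the lowest of those at 5 FPKM or more in a library, with Dusp16 next. Below that level, Dusp10 had 2.86 and 2.21 FPKM (log2 ratio -0.36, interval -0.70 to -0.05). Dusp2, with 1.2 and 0.9 FPKM, passed the filter only through the PB library, so its lower value in PB-TERRA was fixed by the filter, and its interval included 0. Among relatives of the members, Spred2 and Dusp1 had intervals above 0, as given above, while those of Spry1, Spred3, Dusp5 (10.9 and 10.95 FPKM) and Dusp7, which is of the cytoplasmic class of Dusp6 and Dusp9 (5.61 and 5.60 FPKM), included 0.

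Of the other ERK-responsive genes, 19 passed the filter, 8 with an interval above 0 (42.1%) and 1 below (5.26%), with a median of 0.07. The shares of all genes past the filter were 18.2% and 17.6%. Emp1, a membrane protein gene (10.3 and 17.1 FPKM, log2 ratio 0.72), and the ephrin receptor gene Epha4 (11.0 and 14.1 FPKM, log2 ratio 0.35) were the highest, and Etv1 and Myc (56.3 and 68.6 FPKM, log2 ratio 0.28) followed. Ier3 was the lowest (13.0 and 9.91 FPKM, log2 ratio -0.38). Genes induced early after a stimulus, named for this after their values were seen, divided. Myc and Mcl1 (114 and 126 FPKM, log2 ratio 0.14, interval 0.10 to 0.18) had intervals above 0 and Ier3 below. Egr1 had 9.73 and 9.38 FPKM, Junb 36.5 and 36.9 FPKM, Jun 5.46 and 5.15 FPKM and Fos 1.56 and 1.59 FPKM, each with an interval that included 0.

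**Figure D4:**
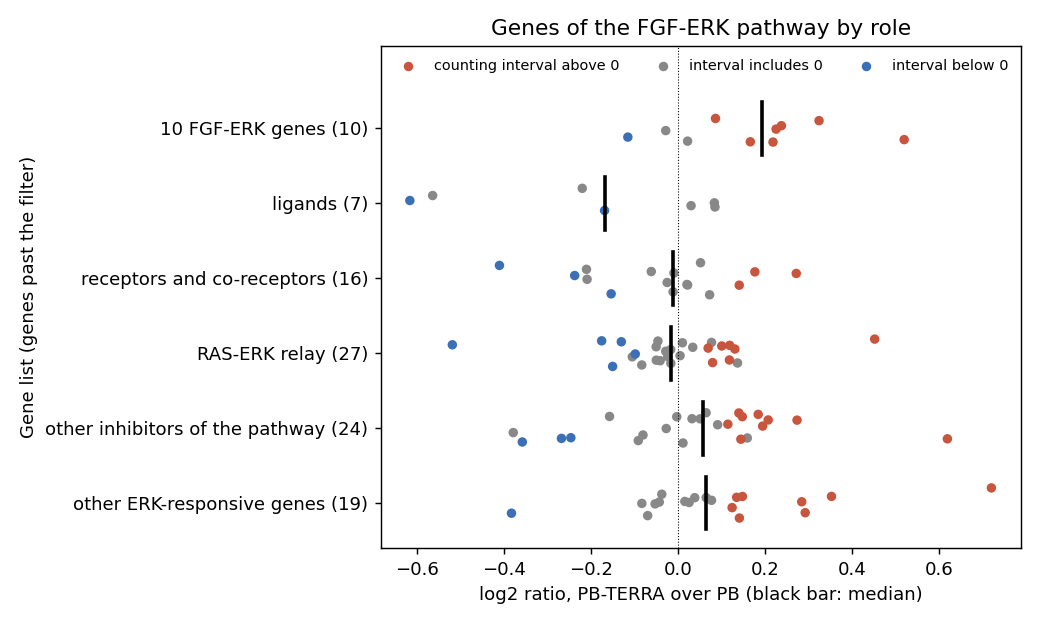
Log2 ratio of every gene past the filter (points), by list, with the number of genes in brackets and the median as a black bar. Red, grey and blue mark a counting interval above, including and below 0. The median is 0.19 for the 10 members and -0.17 for the other ligands, which is 0.030 with no filter, and the vertical place of a point within its row has no meaning.

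Markers of cell types were read beside these values, since in bulk RNA fewer cells of a type and less RNA per cell cannot be told apart. Beside the counts below, 18.2% of all genes past the filter had an interval above 0 and 17.6% below. At a mean of 20 to 150 FPKM the shares were 24.3% and 23%. The 10 markers of undifferentiated mESCs all passed the filter, with a summed level of 3370 FPKM in PB and 3232 FPKM in PB-TERRA. Of these, 4 had an interval above 0, among them Pou5f1 (745 and 773 FPKM) and Sox2 (134 and 145 FPKM), and 4 below, among them Nanog (186 and 173 FPKM) and Dppa5a (1163 and 1039.9 FPKM). Of the primitive endoderm markers, a lineage that FGF and ERK drive, 8 of 10 passed the filter, 7 of them with an interval above 0 and 0 below. Pdgfra, 1 of the 7, passed only through the PB-TERRA library, with 0.51 and 1 FPKM, and so had to be higher there. The summed level over all 10 was 54.7 FPKM in PB and 64.5 FPKM in PB-TERRA. Gata6 had 1.22 and 2.26 FPKM, Gata4, whose interval included 0, 1.86 and 2.31 FPKM, and Lamb1, the most abundant, 30.1 and 31.5 FPKM. Fibroblast markers had 20.3 and 24.3 FPKM in all, with 4 of the 9 in the table past the filter. Of those, Col1a1 (7.99 and 12.1 FPKM) and Col1a2 (0.92 and 1.37 FPKM) had intervals above 0, Col1a2 having passed the filter only through the PB-TERRA library, Thy1 had 9.16 and 8.39 FPKM, and Lum was near 0 in both libraries, at 0.06 and 0.04 FPKM. Trophoblast markers had 182 and 180 FPKM, led by Krt8 at 142 and 141 FPKM, and of the 6 past the filter Hand1 and Cdx2 had intervals above 0 and Eomes and Tfap2c below. Neural markers had 86.8 and 74.8 FPKM, and of the 3 past the filter Sox1, at 1.06 and 1.56 FPKM, had an interval above 0 and Tubb3 and Nes below. The part of these cell types in the differences of the 10 genes was not tested.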

How the data were processed

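The 2 libraries, 1 per line, were prepared from total RNA with a TruSeq kit that does not mark strand, so reads of overlapping antisense genes cannot be told apart. The submitters' processing notes name HISAT, Cufflinks and the build mm9. The annotation is not given in the sources used here. The authors deposited 1 table with gene length and, per library, a value read here as FPKM, rounded to 2 decimals with a floor of 0.01. Its header names no unit. Its columns of fold changes, p-values and calls hold the authors' own comparison and were not used.

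Reads were estimated as FPKM times gene length times depth. Depth, and 114 bases taken off the length, were fitted so that values of up to 15 reads in genes of up to 900 bases fell on whole numbers. Within a tolerance of 0.2 reads, 81.9% of 607 values in PB and 86.0% of 643 in PB-TERRA were whole, where evenly spread values would give 40%. Why these bases come off is not known. The fit was also run on data simulated under the same model, which cannot show that the model holds for the deposited values. Differences of log2 ratios between genes, and ratios of levels, have log-normal 95% intervals from the reads.

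The members and lists were chosen with earlier results of these data known. Named are the 10 members and, per list, the 2 highest and 2 lowest log2 ratios at 5 FPKM or more in a library. Other genes were named after their values were seen. Values of some listed genes are not reported here. Alternatives were the scaling, gene length (50 bins), pseudocount, filter and a 99% interval. Computation was in Python 3.11.15 with scipy 1.17.1, pandas 2.3.3 and numpy 2.4.6, and plotting with matplotlib 3.10.9.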

Additional observations from a re-analysis of the deposited data

How the results depend on the processing

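Centring, scaling to the same summed FPKM, removing the length trend, and a pseudocount of 0 or 1 FPKM kept the direction of the 8 members whose interval lay on 1 side of 0. Dusp9 ranged from 0.51 to 0.56 and Fgfr1 from -0.15 to -0.08. Etv5 had a log2 ratio of 0.060 when the libraries were scaled to the same sum, outside its counting interval. The 7 members above 0 and the 1 below 0 kept their number with the 99% interval, with no filter and with the filter at a mean of 5 FPKM. Of the other ligands, 2 differed by 2-fold and 1 had an interval above 0 with no filter, and 1 had an interval below 0 with the filter at a mean of 5 FPKM. In the relay to ERK, 3 genes had an interval above 0 and 7 below with the length trend removed, the median was 0.020 with the libraries scaled to the same sum, and the cause was not tested. Over all genes, 112 differed by 2-fold, 513 with no filter (18888 genes) and 17 with the filter at a mean of 5 FPKM (8653 genes). No paired analysis was possible because each condition has 1 library. With 1 library per condition the spread between cultures is unknown, and the intervals cover counting error only.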

Other observations

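The genes next to each member on the chromosome were read beside it, by the gene order of RefSeq, taking the 2 nearest genes past the filter on either side. Of the 40 neighbours, 11 had an interval above 0 and 6 below, and 1, Bc1, had no interval. Mpp3 near Etv4, 1 of the 6, had 1.44 and 0.61 FPKM (log2 ratio -1.12). It passed the filter only through the PB library, and so had to be lower in PB-TERRA. Among all genes past the filter, 18.2% were above and 17.6% below. Dusp9 lies on the X chromosome between Bgn (1.45 and 1.65 FPKM) and Slc6a8, the creatine transporter gene (27.3 and 33.7 FPKM, log2 ratio 0.30, interval 0.23 to 0.38). The next gene after Slc6a8, Bcap31, had 66.9 and 78.0 FPKM (log2 ratio 0.22, interval 0.13 to 0.31), and Haus7, on the other side of Bgn, had 13.9 and 15.7 FPKM with an interval that included 0. All 4 neighbours of Dusp9 had a positive log2 ratio, below that of Dusp9, and for Haus7 and Bgn the interval included 0. Over the 413 X-linked genes past the filter the median log2 ratio was 0.01, with 15.7% above and 19.1% below by their intervals, and Dusp9 was the 7th highest of them. Among the 98 of these with a mean of 20 to 150 FPKM, Dusp9 was the highest. These values were looked at after the ratio of Dusp9 was known.

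Around Etv5, which had nearly equal levels in both libraries, Igf2bp2 (21.7 and 18.4 FPKM) and Tra2b (183 and 174 FPKM) had intervals below 0. Beyond Spred1, Fam98b had 41.2 and 40.6 FPKM with an interval that included 0, and the gene after it, Thbs1, which encodes thrombospondin 1, had 14.7 and 18.9 FPKM (log2 ratio 0.36, interval 0.28 to 0.44). The second gene after Fgf4, the short noncoding RNA gene Bc1, had 11.6 and 31.3 FPKM, and no read number could be estimated for it.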
